A study of Mus musculus with 8 samples.

Results

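The genes described here are 10 genes of the unfolded protein response and the integrated stress response: Hspa5, Herpud1, Xbp1, Atf4, Ddit3, Atf3, Asns, Trib3, Sesn2 and Creb3l3. They were chosen by name, with earlier results of these data known, and each symbol matched 1 row of a table of 38283 Ensembl genes. Liver RNA was sequenced in 4 groups of 2 libraries each. The mice were C57BL/6 males that carried loxP sites around exons 4 and 5 of Rora on both alleles (RORα f/f), alone or together with an Alb-cre transgene, which drives Cre recombinase in hepatocytes (RORα LKO). From 8 weeks of age they received a control diet (CD) or a high-fat diet (HFD) with 60% of its calories from fat for 10 weeks, and by the study's methods each library pooled the livers of 2 mice, 4 mice per group. Each diet was thus given to both genotypes, and the 2 genotypes on each diet gave the 4 groups.

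When unfolded proteins gather in the endoplasmic reticulum (ER), the sensors IRE1, PERK and ATF6 signal to the nucleus. IRE1 splices Xbp1 RNA, ATF6 is cut into an active factor, and PERK phosphorylates eIF2, which slows most translation but favours that of Atf4. Other kinases phosphorylate eIF2 when amino acids are scarce, when heme is low or during viral infection, so ATF4 and its targets serve a wider, integrated stress response. Hepatocytes secrete large amounts of protein and depend on ER chaperones, and they also carry CREB3L3, an ER-bound factor that is released by cleavage and regulates genes of lipid and iron metabolism. The splicing of Xbp1, the cleavage of CREB3L3 and the amounts of the proteins are not read by RNA levels of whole genes.

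Promoters of some members hold short elements through which these pathways are known to act, and stretches of 4 are shown, those of the ER genes Hspa5 and Herpud1 and of the ATF4 targets Asns and Trib3, whose values the results turn on. RefSeq windows of 300 bases (250 before and 50 after the start site, build GRCm38.p6) were matched for all 10 members, in 11 windows, and were searched on both strands. The capitals mark an ER stress response element (ERSE, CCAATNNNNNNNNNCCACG), its variant ERSE-II (ATTGGNCCACG) and a C/EBP-ATF response element (CARE, TGATGNAA), the kind of site that ATF4 binds, which in Herpud1 and Trib3 reads on the opposite strand. The Hspa5, Herpud1 and Asns stretches are the 150 bases before the RefSeq start, on chr2:34771940-34772089 (plus strand), chr8:94386279-94386428 (plus strand) and chr6:7693210-7693359 (minus strand). The Trib3 stretch runs from base 4 to base 33 after the RefSeq start, on chr2:152344028-152344057 (minus strand).
Hspa5: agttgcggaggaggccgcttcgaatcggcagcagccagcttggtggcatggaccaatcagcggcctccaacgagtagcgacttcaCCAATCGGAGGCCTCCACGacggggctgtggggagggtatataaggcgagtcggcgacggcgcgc
Herpud1: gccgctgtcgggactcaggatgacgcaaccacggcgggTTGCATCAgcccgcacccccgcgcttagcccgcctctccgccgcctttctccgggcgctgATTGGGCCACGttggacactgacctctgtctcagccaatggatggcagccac
Asns: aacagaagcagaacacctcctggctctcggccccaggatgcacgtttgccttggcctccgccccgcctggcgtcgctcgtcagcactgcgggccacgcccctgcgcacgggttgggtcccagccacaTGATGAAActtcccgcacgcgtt
Trib3: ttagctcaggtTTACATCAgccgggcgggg

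An ERSE was found in 0.119% of all 32851 promoter windows and, among the members, in that of Hspa5. An ERSE-II was found in 0.0365% of all windows and in that of Herpud1, which also held a CARE on the other strand. The CARE was in 3.97% of all windows and in those of 4 members, Asns, Trib3, Herpud1 and Atf3. CCAAT by itself, which is also part of the ERSE and, on the other strand, of the ERSE-II, was in 37.4% of windows and in those of 7 members. The cyclic AMP response element TGACGTCA (1.79% of windows), the UPR element core TGACGTGG (0.676%) and the RORα response element, RORE (0.384%), had no match in the members' windows. These are matches of letters in a window and were not tested as binding sites.

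The values are FPKM (fragments per kilobase of exon scaled to the mapped fragments of a library), so that they can be compared between genes. The table holds no read counts. The spacing of low FPKM values gave the libraries' depth relative to CD-fed RORα f/f library 1 as between 0.826 and 1.15, but no absolute depth. CD-fed RORα f/f library 2 was the shallowest and stood apart, with a sum of 983738 FPKM against 732622 to 806782 in the other 7 libraries, and 43.7% of it in the top 10 genes. Its top gene, ENSMUSG00000093077, alone was at 183794 FPKM, more than the gap from that sum to the next. In the other 7 libraries the top gene was mt-Atp8, at 53721 to 73201 FPKM. Rora itself was at 8.59 to 8.85 FPKM in the CD-fed f/f libraries and 7.96 to 8.18 in the CD-fed LKO libraries, and at 7.56 to 7.86 against 7.30 to 8.02 on HFD (adjusted p = 0.61 on CD and 0.97 on HFD). A whole-gene value includes exons outside the deleted part, and the genotypes did not overlap on CD but overlapped on HFD, with neither difference past the test, so the libraries are called f/f-labelled and LKO-labelled below. By other assays, the study reported that RORα mRNA and protein were depleted in the liver of its LKO mice. Of the hepatocyte markers, Apoa1, Ttr, Cps1, Cyp2e1 and Hnf4a were high in all 8 libraries, while Alb was listed at 0 in 4 libraries and 29902 to 30888 FPKM in the other 4, so a listed 0 in this table can be a failed estimate. No member was listed at 0. In bulk liver, fewer cells of a type and less RNA per cell cannot be told apart.

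Over the 8 libraries the ER genes were the most abundant members. Herpud1, a membrane protein of ER-associated degradation, ranged from 155 to 386 FPKM. Hspa5, which encodes the ER chaperone BiP, ranged from 147 to 309 FPKM, so these neighbours overlapped. Creb3l3 came next at 96.9 to 140.4 FPKM, below every Hspa5 value. Xbp1 was at 56.2 to 84.6 FPKM and Atf4 at 33.7 to 45.6 FPKM, and neither range met its neighbour's. Ddit3, which encodes the stress-induced factor CHOP, was at 4.45 to 10.02 FPKM, a range that did not reach that of Atf4. Below it, Sesn2 (2.06 to 4.12 FPKM), Trib3 (1.84 to 6.42 FPKM) and Asns (0.634 to 5.84 FPKM) overlapped one another and, in the case of Trib3 and Asns, Ddit3. Atf3, an early stress-induced factor, stayed between 0.248 and 0.633 FPKM, just under the lowest Asns value. The highest library held 9.21 times the lowest for Asns and 3.48 times for Trib3, but 1.35 times for Atf4 and 1.45 times for Creb3l3.

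**Figure D1:**
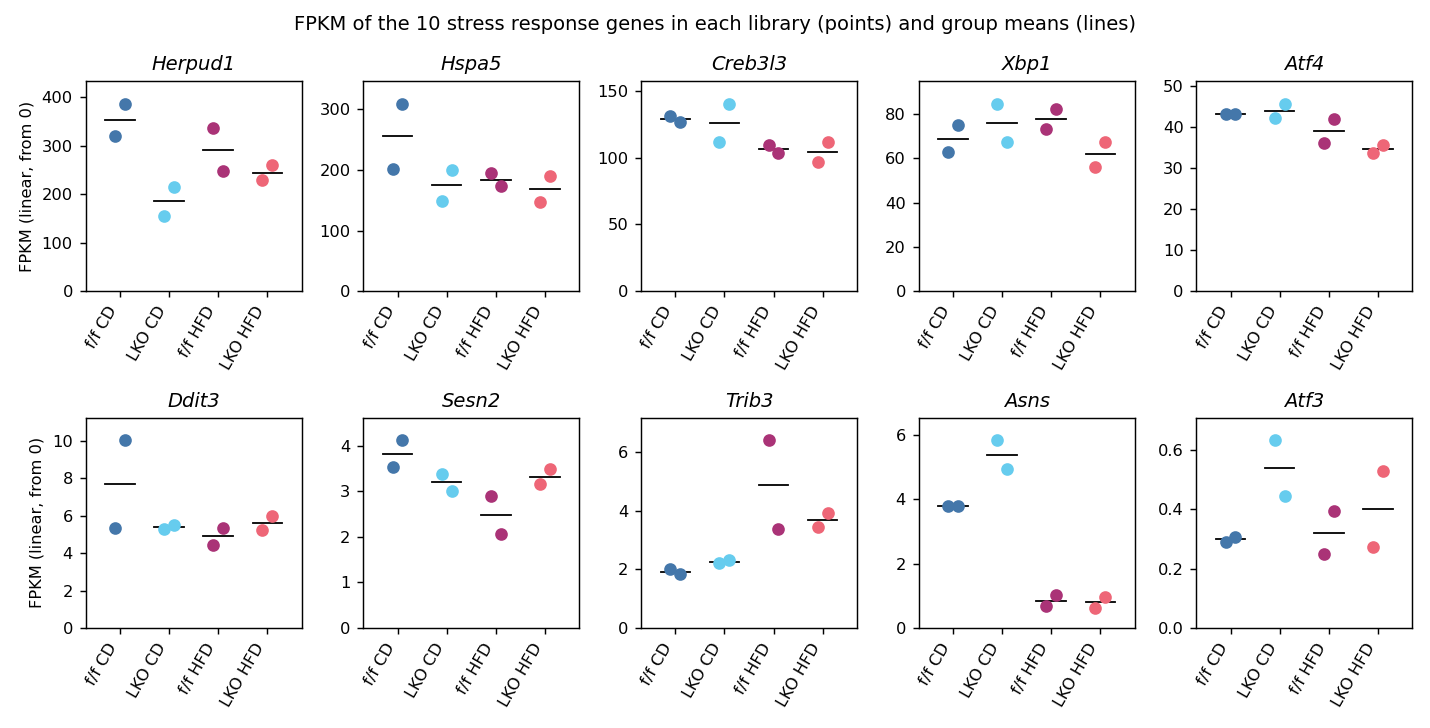
FPKM on linear axes from 0 for each of the 10 genes, with 1 point per library, a line at the mean of each group, and 2 libraries in each of the 4 groups. Asns is at 3.78 to 5.84 FPKM in the 4 CD libraries and at 0.634 to 1.01 in the 4 HFD libraries, Trib3 runs the other way, and Ddit3 and Hspa5 each have 1 high library among the CD-fed f/f pair.

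The largest difference among the members was that of Asns between the diets. Asns encodes asparagine synthetase, the enzyme that makes asparagine from aspartate and a known ATF4 target, from a gene of 13 exon blocks at chr6:7675169-7693254 (GRCm38, minus strand). It was at 3.78 FPKM in both CD-fed f/f-labelled libraries and at 5.84 and 4.95 FPKM in the CD-fed LKO-labelled libraries, against 0.690 and 1.01 FPKM in the HFD-fed f/f-labelled and 0.634 and 0.962 FPKM in the HFD-fed LKO-labelled libraries. All 4 HFD libraries lay below all 4 CD libraries. In linear FPKM the HFD mean was 0.225 of the CD mean in f/f-labelled and 0.148 in LKO-labelled livers. The fits below used log2(FPKM + 1), a scale that compresses differences of genes at low FPKM. On it Asns fell on HFD by 1.59 averaged over genotypes (SE 0.11, 95% interval -1.85 to -1.34, adjusted p = 0.0018), and it ranked 13 of 11634 genes by p. Within genotypes it fell by 1.36 in f/f-labelled livers (SE 0.15, adjusted p = 0.026) and it fell by 1.82 in LKO-labelled livers (SE 0.15, adjusted p = 0.0095). With only the 2 groups compared in the fit, both within-genotype calls were lost (adjusted p = 0.14 and 0.11). The call in f/f-labelled livers was also lost without either CD-fed f/f-labelled library, CD-fed LKO-labelled library 2, either HFD-fed f/f-labelled library or HFD-fed LKO-labelled library 2 (adjusted p = 0.052 to 0.15), while the calls in LKO-labelled livers and averaged over genotypes held without any 1 library. The difference between the falls in the 2 genotypes was -0.46 (95% interval -0.97 to 0.05, adjusted p = 0.63).

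Trib3 went up with the diet. It encodes a pseudokinase that is induced by ATF4 and CHOP and is known to bind AKT, and its gene lies at chr2:152337422-152344032 (GRCm38, minus strand). Its CD values were 2.01 and 1.84 FPKM in f/f-labelled and 2.21 and 2.32 FPKM in LKO-labelled libraries, and its HFD values were 6.42 and 3.38 FPKM in f/f-labelled and 3.45 and 3.93 FPKM in LKO-labelled libraries. The 4 HFD values were above the 4 CD values, with the 2 HFD-fed f/f-labelled libraries far apart (4.90 ± 2.14 FPKM, SD, n = 2). In linear FPKM the HFD mean was 2.54 times the CD mean in f/f-labelled and 1.63 times in LKO-labelled livers. Trib3 rose on HFD by 0.77 on the log2 scale averaged over genotypes (SE 0.15, 95% interval 0.40 to 1.13, adjusted p = 0.029). Within genotypes the difference was 0.97 in f/f-labelled (SE 0.22, adjusted p = 0.088) and 0.56 in LKO-labelled livers (SE 0.22, adjusted p = 0.20), neither past the threshold. The difference in f/f-labelled livers was 0.60 without HFD-fed f/f-labelled library 1 and 1.33 without library 2, where it passed the test (adjusted p = 0.025), and it also passed when genes had to be above 1 FPKM in all 8 libraries. Leaving out 1 library ended the averaged call for each of the 4 CD libraries and for either HFD-fed LKO-labelled library, with differences of 0.73 to 0.80 and adjusted p = 0.075 to 0.10. The 2 members that passed the test in the diet comparison, both with a CARE in their promoter window, thus differed in opposite directions.

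Atf4, the factor common to both branches, varied little. Its levels were 43.0 FPKM in both CD-fed f/f-labelled libraries, 42.0 and 45.6 FPKM in the CD-fed LKO-labelled, 36.1 and 41.8 FPKM in the HFD-fed f/f-labelled and 33.7 and 35.4 FPKM in the HFD-fed LKO-labelled libraries. All HFD values were below all CD values, the nearest by less than 1 FPKM, and the difference averaged over genotypes was -0.21 (SE 0.06, unadjusted p = 0.01, adjusted p = 0.074). Creb3l3 was at 126 to 131 FPKM in CD-fed f/f-labelled and 112 to 140.4 FPKM in CD-fed LKO-labelled libraries, and at 104 to 109 FPKM and 96.9 to 112 FPKM on HFD. Its HFD and CD values overlapped at their edges, with a difference of -0.20 (SE 0.08, unadjusted p = 0.04, adjusted p = 0.16).

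The ER chaperone gene itself did not follow the diet beyond its spread. Hspa5 was at 202 and 309 FPKM in CD-fed f/f-labelled, 149 and 199.8 FPKM in CD-fed LKO-labelled, 194 and 173 FPKM in HFD-fed f/f-labelled and 147 and 189.8 FPKM in HFD-fed LKO-labelled libraries. Library 2 of the CD-fed f/f-labelled group, whose FPKM sum was high largely through 1 gene, was above the other 7, and those 7 lay between 147 and 202 FPKM. The diet difference of Hspa5 was -0.17 (95% interval -0.57 to 0.22, adjusted p = 0.55) and was -0.01 without that library and -0.33 without library 1 of the same group. Xbp1, which encodes the factor that IRE1 activates by splicing, differed by 0.02 between the diets (95% interval -0.23 to 0.27, adjusted p = 0.92). Ddit3 was at 10.02 FPKM in the same CD-fed f/f-labelled library 2 and at 4.45 to 5.98 FPKM in the other 7, with a diet difference of -0.21 (95% interval -0.59 to 0.18, adjusted p = 0.46) that was -0.02 without that library and -0.39 without library 1. Ddit3 shares 68 exonic bases with Mars on the opposite strand, and the library kit did not mark strand, so reads there cannot be told apart.

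Averaged over genotypes, 1 member rose (Trib3) and 1 fell (Asns) among the 9 tested, beside 9.89% of all 11634 genes called in either direction, 5.04% higher and 4.86% lower. At an unadjusted p under 0.05, 1 member was higher and 3 were lower (Asns, Atf4 and Creb3l3), beside 14.9% and 13% of all genes. The median difference of the 9 members was -0.19, against 0.01 over all genes. In f/f-labelled livers 1 member passed the adjusted test (Asns), beside 1.33% of genes. There 1 was higher and 2 were lower at an unadjusted p (Trib3, and Asns with Sesn2), beside 9.94% and 9.22%. In LKO-labelled livers 1 passed the adjusted test (Asns), beside 3.02%, and 1 was higher and 2 lower at an unadjusted p (Trib3, and Asns with Atf4), beside 11.7% and 9.69%. Atf3 did not reach 1 FPKM in any library and was not among the genes tested.

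**Figure D2:**
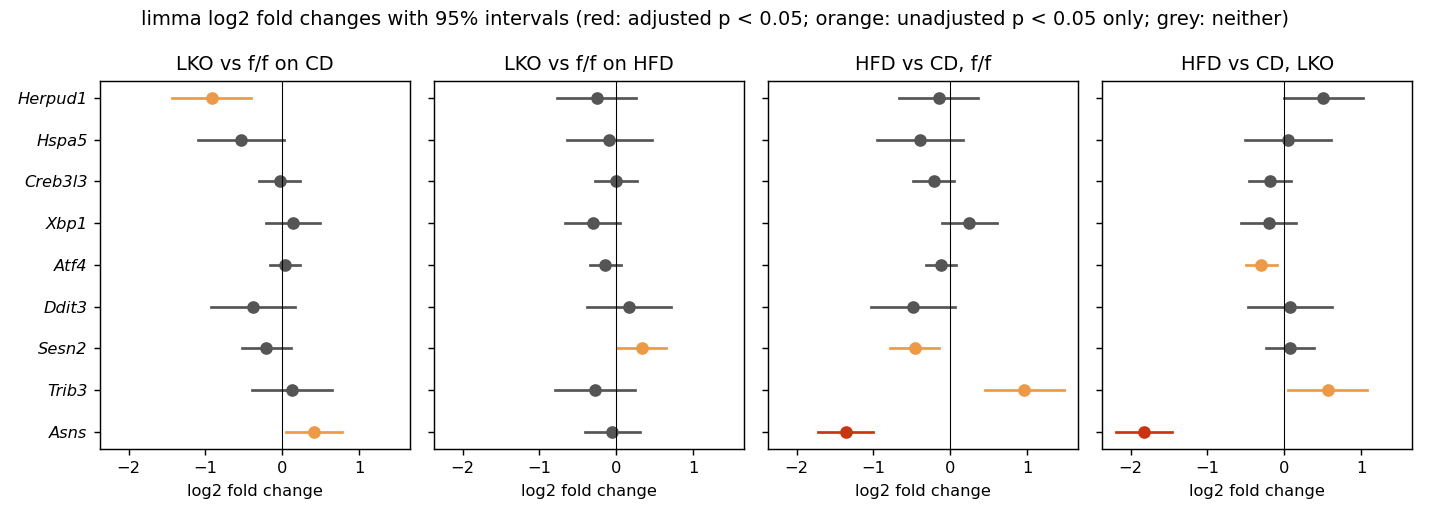
limma log2 fold changes of the 9 members tested (points) with 95% intervals (lines) for the genotype labels on each diet and for the diets in each genotype label, on the log2(FPKM + 1) scale. Asns is the only member whose adjusted p is under 0.05 in these 4 panels, on HFD in either genotype label, and Herpud1 is the lowest of the members in LKO-labelled against f/f-labelled livers on CD, at -0.92.

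The genotype comparison asked which of these genes depend on hepatic RORα. Groups of 2 libraries can lie apart without a genotype effect, and the share of all genes without overlap is not given here. On CD the member that differed most was Herpud1. It was at 319.8 and 386 FPKM in f/f-labelled libraries and at 155 and 215 FPKM in LKO-labelled libraries (353 ± 47.1 against 185 ± 41.9 FPKM, SD, n = 2 each), so the 2 groups did not overlap. The difference was -0.92 (SE 0.22, 95% interval -1.43 to -0.40, unadjusted p = 0.0041), but it did not pass the adjusted test (adjusted p = 0.22, and 0.14 to 0.55 over the alternatives). On HFD Herpud1 was at 336 and 247 FPKM in f/f-labelled and 229 and 259 FPKM in LKO-labelled libraries, which overlapped (difference -0.26, 95% interval -0.77 to 0.26). Averaged over diets the difference was -0.59 (SE 0.15, unadjusted p = 0.0068, adjusted p = 0.18). The 2 diets differed in it by 0.66 (95% interval -0.06 to 1.39, adjusted p = 0.63).

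Asns was higher in LKO-labelled than in f/f-labelled livers on CD by 0.41 (SE 0.15, unadjusted p = 0.031, adjusted p = 0.35), without overlap. The difference of Asns ranged from 0.31 to 0.51 over the libraries left out. It did not stay under an unadjusted p of 0.05 with a pseudocount of 0.1 or without some single CD libraries. On HFD the libraries overlapped for Asns and the difference was -0.05 (95% interval -0.41 to 0.31). Hspa5 on CD was lower in both LKO-labelled libraries than in both f/f-labelled libraries, by 0.53 (95% interval -1.09 to 0.03, adjusted p = 0.42), with a difference of -0.21 when f/f-labelled library 2 was left out and -0.86 when library 1 was. Xbp1 differed by 0.14 on CD (95% interval -0.22 to 0.50) and by -0.31 on HFD (95% interval -0.66 to 0.05), where 56.2 and 67.2 FPKM in LKO-labelled lay below 73.3 and 82.2 FPKM in f/f-labelled libraries. Creb3l3 had the narrowest difference, -0.03 on CD (95% interval -0.30 to 0.23) and -0.00 on HFD (95% interval -0.27 to 0.27). Atf3, untested, was at 0.291 and 0.308 FPKM in the CD-fed f/f-labelled and 0.633 and 0.443 FPKM in the CD-fed LKO-labelled libraries, without overlap, and at 0.248 and 0.395 against 0.272 and 0.530 FPKM on HFD, with overlap. In a fit that kept all genes above 0, its CD difference was 0.24 (SE 0.12, unadjusted p = 0.082, adjusted p = 0.60).

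Sesn2 encodes sestrin 2, a leucine sensor that restrains mTORC1 and is induced by ATF4. It was at 3.54 and 4.12 FPKM in the CD-fed f/f-labelled, 3.38 and 3.01 FPKM in the CD-fed LKO-labelled, 2.89 and 2.06 FPKM in the HFD-fed f/f-labelled and 3.15 and 3.49 FPKM in the HFD-fed LKO-labelled libraries. The f/f-labelled libraries were thus the higher pair on CD and the lower pair on HFD, with no overlap on either diet. With 2 libraries per group, a lack of overlap is a weak criterion. The genotype difference was -0.21 on CD (SE 0.13, adjusted p = 0.56) and 0.33 on HFD (SE 0.13, unadjusted p = 0.042, adjusted p = 0.50). The difference between these values was 0.54 (SE 0.19, 95% interval 0.09 to 0.99, unadjusted p = 0.025, adjusted p = 0.56), which did not pass the adjusted test. Over the libraries left out the HFD difference ranged from 0.17, without HFD-fed f/f-labelled library 2, to 0.50. It did not stay under an unadjusted p of 0.05 when any library other than HFD-fed f/f-labelled library 1 was left out. Its unadjusted p was also above 0.05 without normalization, without the filter on low FPKM, with only the groups compared and with the replicate block. The difference between the diets ranged from 0.38 to 0.70, with a highest unadjusted p of 0.081.

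Thus 0 of the 9 members passed limma's adjusted test in any genotype comparison. On CD, 1 member was higher (Asns) and 1 lower (Herpud1) at an unadjusted p, beside 6.15% and 6.12% of all genes, while 0.0172% of all genes passed the adjusted test. On HFD, 1 was higher (Sesn2) and 0 lower, beside 5.46% and 4.12%, with 0.043% past the adjusted test. Averaged over diets, 0 were higher and 1 lower (Herpud1), beside 7.18% and 6.3%, with 0.103% past the adjusted test. For the difference between the diets of the genotype effect, 1 was higher (Sesn2) and 0 lower, beside 4.35% and 4.01%, with 0.0344% past the adjusted test. The members' median genotype difference was -0.03 on CD and -0.09 on HFD, against -0.00 over all genes on each diet.

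The other genes of these pathways were read from lists of known members. Of the ER chaperones and folding enzymes, averaged over genotypes, 11 of 18 fell on HFD and 0 rose by the adjusted test, beside 4.86% of all genes lower, and the median of the list was -0.33. Pdia6, a disulfide isomerase, was at 102 to 111 FPKM in the 4 CD libraries and 65.2 to 77.6 FPKM in the 4 HFD libraries (difference -0.53, SE 0.07, adjusted p = 0.0084). Sdf2l1, a cofactor of BiP, was at 11.8 to 15.7 FPKM on CD and 3.85 to 7.18 FPKM on HFD (difference -1.13, SE 0.16, adjusted p = 0.01). Pdia3, which folds glycoproteins with calreticulin and calnexin, was at 167 to 181 FPKM on CD and 107 to 135 FPKM on HFD (difference -0.46, SE 0.07, adjusted p = 0.012). The summed FPKM of the list was 1836 to 2250 on CD and 1354 to 1640 on HFD, with no overlap. The count of 11 fell to 6 and 2 when CD-fed f/f-labelled library 1 or 2 was left out, to 4 without CD-fed LKO-labelled library 2, to 6 and 4 without HFD-fed f/f-labelled library 1 or 2, and to 4 and 5 without HFD-fed LKO-labelled library 1 or 2. The list's median stayed between -0.40 and -0.26 under all alternatives, and all 18 differences stayed negative.

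Related ER lists had fewer calls, beside 5.04% of all genes higher and 4.86% lower by the adjusted test. Of the ER-associated degradation genes, 3 of 13 fell and 0 rose (median -0.20), among them Derl1, a channel subunit, at 43.0 to 48.6 FPKM on CD and 35.5 to 37.6 FPKM on HFD (difference -0.27, adjusted p = 0.021). Of the translocation and export genes, 3 of 14 fell and 0 rose (median -0.23), led by Sec61g, a translocon subunit, at 38.9 to 53.3 FPKM on CD and 23.0 to 34.9 FPKM on HFD (difference -0.70, adjusted p = 0.0068). These counts of 3 ranged over 0 to 4 and 1 to 6 across the alternatives. Among the 6 sensors and their activating proteases, 1 fell, Ern1, which encodes IRE1 (difference -0.26, adjusted p = 0.034), a count that ranged over 0 to 1 across the alternatives. Among the eIF2 kinases, phosphatase subunits and exchange factor subunits 2 of 12 fell, both regulatory subunits of the phosphatase that removes phosphate from eIF2: Ppp1r15a (GADD34, difference -0.57, adjusted p = 0.029) and Ppp1r15b (difference -0.23, adjusted p = 0.03). Their count ranged over 0 to 2.

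Targets of ATF4 were called in both directions, beside the 5.04% of all genes higher and 4.86% lower. Of the amino acid synthesis and transport genes 7 of 16 were expressed enough to test, and 2 fell and 1 rose (median 0.09). Slc38a2, a neutral amino acid transporter, was at 47.7 to 73.7 FPKM on CD and 30.8 to 35.7 FPKM on HFD (difference -0.73, adjusted p = 0.0036). Cth, which makes cysteine from cystathionine, fell by 0.49 (adjusted p = 0.0094), and Shmt2, the mitochondrial serine hydroxymethyltransferase, rose by 0.24 (adjusted p = 0.019). Of the 12 aminoacyl-tRNA synthetases 1 rose (Mars, 0.35, adjusted p = 0.049) and 1 fell (Nars, -0.17, adjusted p = 0.046), with a median of -0.05, a share near that of all genes, and each count ranged over 0 to 1 across the alternatives. Of the stress effectors 8 of 10 were tested, and 2 rose and 2 fell (median 0.17). Vldlr, a lipoprotein receptor, was at 0.200 to 0.505 FPKM on CD and 1.46 to 2.82 FPKM on HFD (difference 1.13, adjusted p = 0.0036), and Atf5 rose by 0.62 (adjusted p = 0.02). Cebpb and Ddit4 fell by 0.55 and 0.72 (adjusted p = 0.032 and 0.045). Ddit4 was at 10.7 and 8.22 FPKM on CD and 3.66 and 2.57 FPKM on HFD in f/f-labelled livers (difference -1.31, SE 0.24, adjusted p = 0.058). In LKO-labelled livers it was at 4.02 and 3.34 FPKM on CD and 4.16 and 2.33 FPKM on HFD, which overlapped. The genotypes differed in the diet effect on Ddit4 by 1.18 (SE 0.34, adjusted p = 0.56). The count of stress effectors that rose ranged over 1 to 2 and of those that fell over 0 to 2. Of the CREB3L3 targets 2 of 11 rose and 1 fell (median -0.08), the last being Hamp, which encodes the iron hormone hepcidin, at 1688 to 2627 FPKM on CD and 438 to 855 FPKM on HFD (difference -1.62, adjusted p = 0.0079). The 2 that rose, Insig2 and Apoc2, differed by 0.50 and 0.39 (adjusted p = 0.0067 and 0.035), and the counts of this list ranged over 1 to 3 in each direction.

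**Figure D3:**
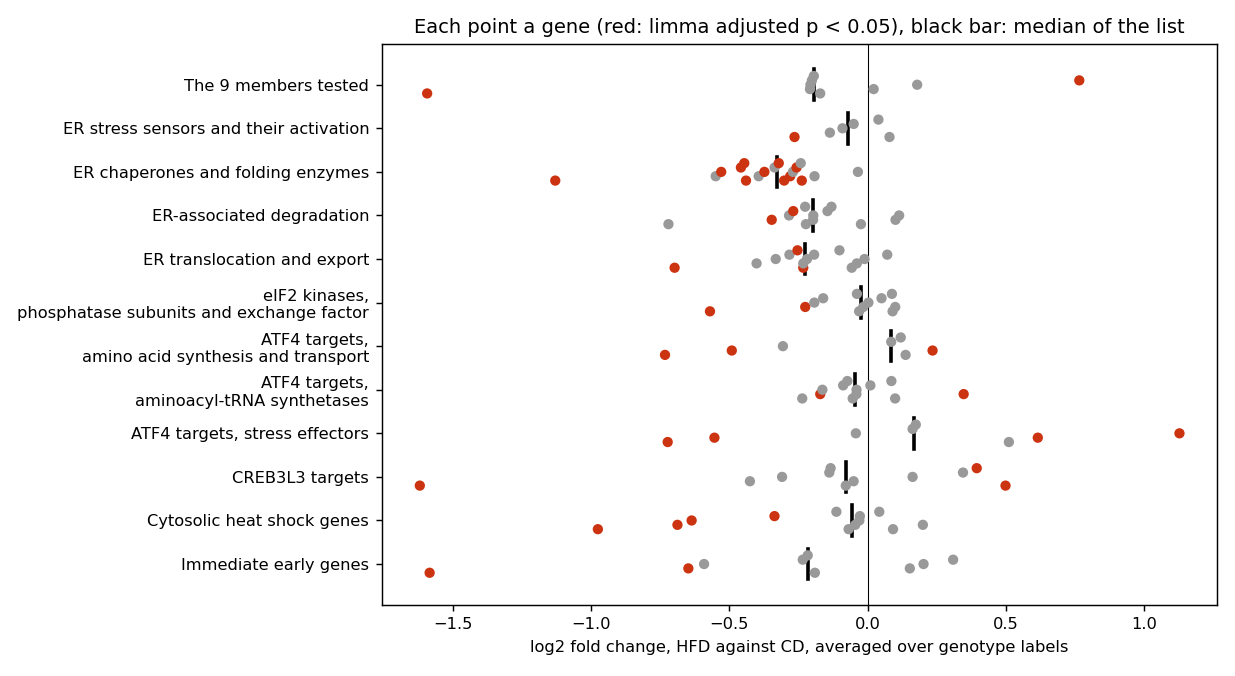
log2 fold changes, HFD against CD averaged over genotype labels, of every tested gene of each list, with 1 point per gene and a black bar at the list's median. All 18 ER chaperone genes lie to the left of 0 with 11 past the adjusted test, while the ATF4 and CREB3L3 target lists spread to both sides.

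Genes of other processes were also called between the diets, averaged over genotypes, beside 5.04% of all genes higher and 4.86% lower. Of the cytosolic heat shock genes 4 of 12 tested fell and 0 rose, among them Hsp90aa1 at 37.6 to 49.5 FPKM on CD and 22.4 to 30.7 FPKM on HFD (adjusted p = 0.014). That count ranged over 0 to 4 across the alternatives, with 0 without CD-fed LKO-labelled library 2 or HFD-fed LKO-labelled library 1. Of the immediate early genes, which respond within minutes to handling and hormones, 2 of 9 tested fell and 0 rose. The count that fell ranged over 1 to 3 across the alternatives, and 3 of the 9 differences were positive. The list's summed FPKM, mostly Zfp36 and Dusp1, was 111 to 124 on CD and 81.4 to 96.3 on HFD. Of the 6 hepatocyte markers 3 rose on HFD by the adjusted test (1 to 3 across the alternatives). On the quantile-normalized scale these were Cyp2e1 (0.92, adjusted p = 0.0031), Ttr (0.39, adjusted p = 0.026) and Hnf4a (0.28, adjusted p = 0.048). The deposited FPKM of Ttr showed no such rise, at 3994 to 4541 on CD and 4034 to 4302 on HFD. Cps1 was lower on HFD without overlap (difference -0.30, unadjusted p = 0.0083, adjusted p = 0.067). Alb was listed at 0 in CD-fed LKO-labelled library 1, HFD-fed f/f-labelled library 2 and both HFD-fed LKO-labelled libraries. Its part in the differences of abundant genes was not tested. The summed FPKM of 6 stellate cell and fibroblast markers was 32.9 to 53.9 on CD and 59.7 to 80.4 on HFD. Most of this sum was Dcn, at 26.4 to 45.3 FPKM on CD and 52.5 to 72.2 FPKM on HFD. Of the 6 differences 3 were positive and 3 negative. Of these 6 genes 1 passed the adjusted test (Dcn, 0.78, adjusted p = 0.028), and Col1a1 and Acta2 were at or below 1.08 and 1.51 FPKM throughout. The macrophage markers (51.8 to 92.2 FPKM summed), endothelial markers (15.0 to 23.1) and erythroid markers (65.8 to 502, with 1 of 5 lower on HFD by the adjusted test) overlapped between the diets, as did the cholangiocyte (2.05 to 2.67), lymphocyte (1.25 to 2.39) and adipocyte markers (0.267 to 5.55). The part of any of these in the diet differences of the members was not tested. Between genotypes, all 6 macrophage markers were higher in LKO-labelled livers on HFD (median 0.39), while 5 were lower and 1 higher on CD. All 5 erythroid markers were higher on CD (median 1.11, -0.34 to 2.56 over the alternatives) and on HFD (median 0.40). In these lists 0 genes passed the adjusted test between genotypes on either diet. Their part in the genotype differences of the members was not tested.

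In the genotype comparison on CD, 0 genes of the ER and ATF4 lists passed limma's adjusted test. At an unadjusted p under 0.05, 3 of 18 chaperones, 2 of 13 degradation genes, 8 of 14 translocation and export genes and 2 of 6 sensors were lower, with 0 higher in each of these lists, beside 6.12% of all genes lower. On HFD the counts lower were 2 of 18, 0 of 13, 2 of 14 and 0 of 6, beside 4.12%. Dnajb9, a BiP cochaperone that IRE1 and XBP1 are known to induce, was at 60.7 and 97.1 FPKM in f/f-labelled and 31.5 and 39.3 FPKM in LKO-labelled libraries (difference -1.08, SE 0.22, adjusted p = 0.20). Manf, a secreted ER stress protein, was at 58.1 and 73.7 against 32.3 and 46.2 FPKM (difference -0.71, SE 0.20, adjusted p = 0.26). Eif2ak3, which encodes PERK, was at 4.26 and 5.12 against 2.57 and 3.01 FPKM (difference -0.60, SE 0.12, adjusted p = 0.20). Without CD-fed f/f-labelled library 2 these counts were 1, 0, 3 and 1, and without CD-fed LKO-labelled library 1 they were 2, 1, 0 and 2. Across the alternatives they ranged over 1 to 4, 0 to 4, 0 to 8 and 1 to 3. The stress effector Fgf21, a hepatic hormone that both ATF4 and CREB3L3 are known to induce, was at 1.501 and 1.32 against 4.70 and 3.600 FPKM on CD (difference 1.05, SE 0.24, adjusted p = 0.20). On HFD Fgf21 was at 2.54 and 1.59 against 5.14 and 3.05 FPKM (difference 0.73, SE 0.24, adjusted p = 0.38). Averaged over diets it differed by 0.89 (SE 0.17, adjusted p = 0.12). Ddit4, which encodes the mTORC1 inhibitor REDD1, was at 10.7 and 8.22 against 4.02 and 3.34 FPKM on CD (difference -1.16, SE 0.24, adjusted p = 0.20).

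Of the 11 CREB3L3 targets 4 were higher and 0 lower in LKO-labelled livers on CD at an unadjusted p, beside 6.15% of all genes higher, and 5 were higher and 0 lower on HFD, beside 5.46%. By the adjusted test 0 were higher on CD and 1 was higher on HFD, Insig2, which encodes an ER protein that holds back SREBP processing. The counts of this list on HFD were not repeated under the alternatives. Insig2 was at 66.5 and 67.9 FPKM in f/f-labelled and 113 and 99.97 FPKM in LKO-labelled libraries on CD, and at 82.4 and 81.0 against 157 and 156 FPKM on HFD, without overlap on either diet. Its difference was 0.65 on CD (SE 0.08, adjusted p = 0.089), 0.94 on HFD (SE 0.08, adjusted p = 0.029) and 0.79 averaged over diets (adjusted p = 0.0074). Cidec, a lipid droplet protein, was higher by 1.70 on HFD (adjusted p = 0.14) and by 1.60 averaged over diets (adjusted p = 0.051), and did not pass the test.

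Across the 8 libraries the members fell into no single pattern. These correlations are descriptions over 8 libraries of 4 groups, and they share the libraries' normalization. Hspa5 went with Ddit3 (Pearson's r = 0.806) and Herpud1 (r = 0.755), also after the group means were taken out (r = 0.759 and 0.815), and CD-fed f/f-labelled library 2 was the highest for all 3. Without that library the r of Hspa5 with Ddit3 was -0.032, so it rested on 1 library, while that with Herpud1 was 0.739. Atf4 went with Asns (r = 0.837, 0.436 within groups and 0.824 without that library), and Trib3 ran against Asns (r = -0.856, -0.511 within groups and -0.85 without that library) and Atf4 (r = -0.76). Among all 11634 genes, those most like Hspa5 were Gfpt1 (r = 0.988), Hyou1 (r = 0.974) and Syvn1 (r = 0.97). For Herpud1 they were Fgd5 (r = 0.976), Ivns1abp (r = 0.96) and Fndc3a (r = 0.956). For Atf4 they were Gsta2 (r = 0.972), Ufc1 (r = 0.97) and Sec61b (r = 0.957).

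Asns had 180 genes with r above 0.9, the most of any member, led by Syne4 (r = 0.992), Dusp1 (r = 0.99) and Slc25a25 (r = 0.986). Dusp1, an immediate early gene that encodes a MAP kinase phosphatase, was at 19.3 to 28.8 FPKM on CD and 6.24 to 8.48 FPKM on HFD. For Trib3 the most alike were Ptpn12 (r = 0.981), Notumos (r = 0.971) and Ccdc115 (r = 0.971), for Creb3l3 Ces4a (r = 0.985), Fam102a (r = 0.97) and Slc38a9 (r = 0.97), and for Sesn2 Fbxo4 (r = 0.959), Usp47 (r = 0.948) and Bpnt1 (r = 0.94). For Ddit3 they were Tbc1d1 (r = 0.963), Rmrp (r = 0.944) and Urb1 (r = 0.944), and for Xbp1 Ino80 (r = 0.95), Riox1 (r = 0.949) and Xab2 (r = 0.946). CD-fed f/f-labelled library 2 was the highest for Ddit3, Hspa5, Herpud1 and Sesn2. The genes most like them were not sought again without that library.

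**Figure D4:**
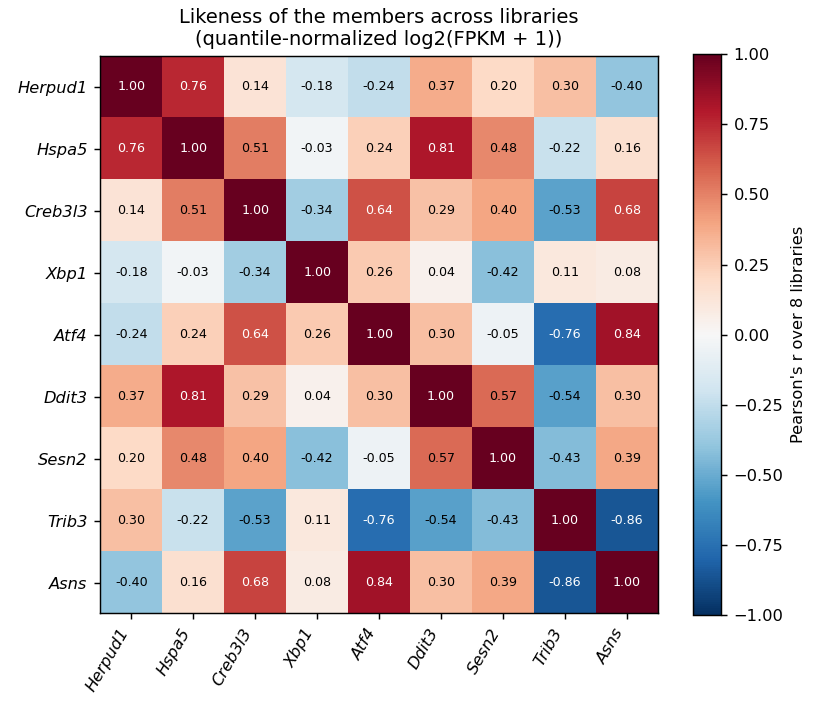
Pearson's r over 8 libraries between the quantile-normalized log2(FPKM + 1) values of the 9 members tested. Hspa5 goes with Ddit3 at 0.806 (-0.032 without CD-fed f/f-labelled library 2) and with Herpud1 at 0.755, Atf4 and Asns go together at 0.837, and Trib3 runs against Asns at -0.856.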

How the data were processed

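The authors trimmed reads of non-stranded poly(A) libraries with cutadapt 1.0, aligned them to GRCm38 with TopHat2 2.0.7 and estimated expression with Cufflinks (version not given in the sources used here). The deposited values are FPKM per Ensembl gene, 1 column per library, and no read counts.

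Genes above 1 FPKM in at least 1 library (11634) were kept, and log2(FPKM + 1) was quantile-normalized. One limma 3.58.1 fit (R 4.3.3, mean-variance trend, 4 groups, 4 residual degrees of freedom) gave all 7 comparisons. Adjusted p is Benjamini-Hochberg over all genes tested, with a threshold of 0.05, and intervals are 95%. The fit was tested on simulated data. Alternatives were another pseudocount (0.1), 2 other filters, 2 other normalizations, no trend, only the groups compared, a replicate block and each library left out. The study's own permutation call was not used. Relative depth is the commonest ratio between 2 libraries of values under 0.3 FPKM.

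All 10 members are named. Other lists name at most 3 genes per comparison by lowest p among those with an unadjusted p under 0.05 and no overlap between the groups' libraries. Cebpb, Ddit4 on HFD, Insig2, Apoc2, Zfp36, Ttr and Hnf4a, which overlap between the diets, were named outside this rule, after their values were seen. Genes alike were the 3 with the highest r. Members and lists were chosen with earlier results of these data known. Gene positions are from GENCODE M21 and promoters from RefSeq. p-values measure the spread between pooled libraries. No 2 libraries held the same values.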

Additional observations from a re-analysis of the deposited data

How the results depend on the processing

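In f/f-labelled livers the 1 member called between the diets (Asns) became 0 without the filter on low FPKM and 0 with only the groups compared in the fit, and 0 to 1 when a library was left out. With genes above 1 FPKM in all 8 libraries, where Asns was not tested, and without HFD-fed f/f-labelled library 2 the 1 called was Trib3. In LKO-labelled livers 1 became 0 with genes above 1 FPKM in all 8 libraries, where Asns was not tested, and 0 with only the groups compared. Averaged over genotypes 2 became 1 without the filter (Trib3, adjusted p = 0.07) and 1 with the filter in all 8 libraries, and 1 to 2 when a library was left out. Asns fell by 1.52 to 1.66 over the libraries left out. The genotype comparisons kept 0 members called under every alternative. Of 63 member differences, 18 changed sign under some alternative, and 0 of the 15 with an unadjusted p under 0.05 did. Over all genes, calls ranged from 374 to 1304 (1151 here) for the averaged diet comparison, 5 to 323 (155) in f/f-labelled and 0 to 570 (351) in LKO-labelled livers. They ranged from 0 to 19 (2) between genotypes on CD, 4 to 24 (5) on HFD, 7 to 50 (12) averaged over diets and 0 to 21 (4) for the difference between diets. Without normalization 36.1% of the averaged diet calls were higher, against 50.9%. The library numbers did not pair the samples (r of same-numbered deviations -0.00371 to 0.149 over 6 group pairs). With the replicate block the members called stayed at 1, 1 and 2 in the 3 diet comparisons and 0 in the others. Counts of the other lists under the alternatives were added after the data were seen. They cover only the averaged diet comparison and the genotype comparison on CD. The table gives no counts, so the depth behind each value is unknown.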
